A study of Rattus norvegicus with 12 samples.

Results

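Genes that encode the DNA replication machinery were followed in rat calvaria, the flat bone of the skull vault, 6 h after surgery on animals 10 weeks old. The 41 genes, of 22926 measured, are a list by function: subunits of the MCM helicase, factors that license origins or switch the helicase on, polymerases and primase, the sliding clamp and its loader, single-strand DNA binding proteins, Okazaki fragment enzymes, enzymes of nucleotide supply, and proteins that restore chromatin behind the fork. A member was taken as the probe carrying its symbol that was well above background on at least 4 of 12 arrays, 1 probe per gene, and all 41 passed, 33 of them well above background on every array. The laser group (4 arrays) was bone cut with an Er:YAG laser, which emits infrared light that water absorbs strongly, in pulses of 127 mJ at 20 Hz passed over the bone in 3 strokes. The bur group (4 arrays) was bone drilled with a rotating bur, and in both groups the rectangular defect measured 8 by 3 mm. The control group (4 arrays) was calvaria whose periosteum had been stripped but whose bone was not cut. The labels give no strain or sex and do not say that each sample is another animal, so each p-value reflects the spread among these samples, part of which may be technical.

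Replication is prepared in G1, when the origin recognition complex with Cdc6 and Cdt1 loads the MCM helicase onto DNA, and it starts in S phase, when Cdc45 and the GINS complex turn the loaded ring into a moving helicase. Polymerase alpha with primase then lays short primers, which polymerases delta and epsilon extend while held by PCNA, the clamp that the RFC complex opens and closes. Transcription of many of these genes rises at the passage into S phase under E2F transcription factors, so their RNA is widely read as a mark of dividing cells, and in calvaria such cells include osteogenic precursors and the blood precursors of the marrow spaces.

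Each array measured the tissue RNA with 62976 spots in 1 colour. The share of spots well above background ran from 67.8% to 73.7%, no spot was saturated, and the number of arrays limits the precision. The treated arrays lay on 2 slides, each with 2 laser and 2 bur arrays, and all controls on a slide of their own, so treatment and slide cannot be told apart in either comparison with control. The added spike-in RNA was brighter on treated arrays (mean log2 signal 8.37, against 5.16 on control arrays), and its part in the results was not tested. Markers of the labelled tissue were detected: all 12 osteoblast and bone matrix genes were well above background on every array. Markers of other tissue were detected too. All 8 neural and glial markers were well above background on every control array, 5 on every laser array and 3 on every bur array. The median difference of all genes was 0.21 for laser and 0.23 for bur minus control on the log2 scale, and 0.10 and 0.05 when each array was scaled on its median. Of the genes called against control, 64.7% (laser) and 64.2% (bur) were higher, which became 58% and 51.6% under that scaling.

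Against uncut bone, 38 of the 41 replication genes fell in laser-ablated bone and none rose, while 17.6% of all genes measured were lower there and 32.2% higher (limma, adjusted p under 0.05 after Benjamini-Hochberg adjustment over all genes). In drilled bone 39 of 41 fell and none rose, beside 18.3% of all genes lower and 32.7% higher. The median difference of the members was -1.39 for laser and -1.54 for bur minus control on the log2 scale, and all 41 values lay below 0 in both comparisons. In laser-ablated bone 33 members (80.5%) were more than 2-fold lower than in control bone, beside 11% of all genes, and in drilled bone 37 members (90.2%), beside 10.7%. These counts rest on fitted differences without a test of their size. A test against a log2 change of at least 1 called 0 members for laser and 2 for bur, beside 1.4% and 0.742% of all genes. With normexp background correction the members' median for laser minus control was -0.97. All laser values lay below all control values for 38 members, where 17.8% of all genes showed that order, and all bur values did so for 31, where 15.7% did. Bulk tissue cannot tell fewer cells of a type from less RNA per cell, and these levels are relative to each array's 75th percentile. Both comparisons use the same 4 control arrays. The sizes of some members depend on the processing. Normexp background correction brought the difference of 12 members in each comparison closer to 0 by over 1.5-fold. They were Orc1, Orc6, Cdc6, Cdt1, Gins2, Mcm6, Mcm10, Pola1, Pola2, Pole, Pole2 and Uhrf1. Limma on the authors' deposited normalized values did so for 8 members for laser and 9 for bur.

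**Figure D1:**
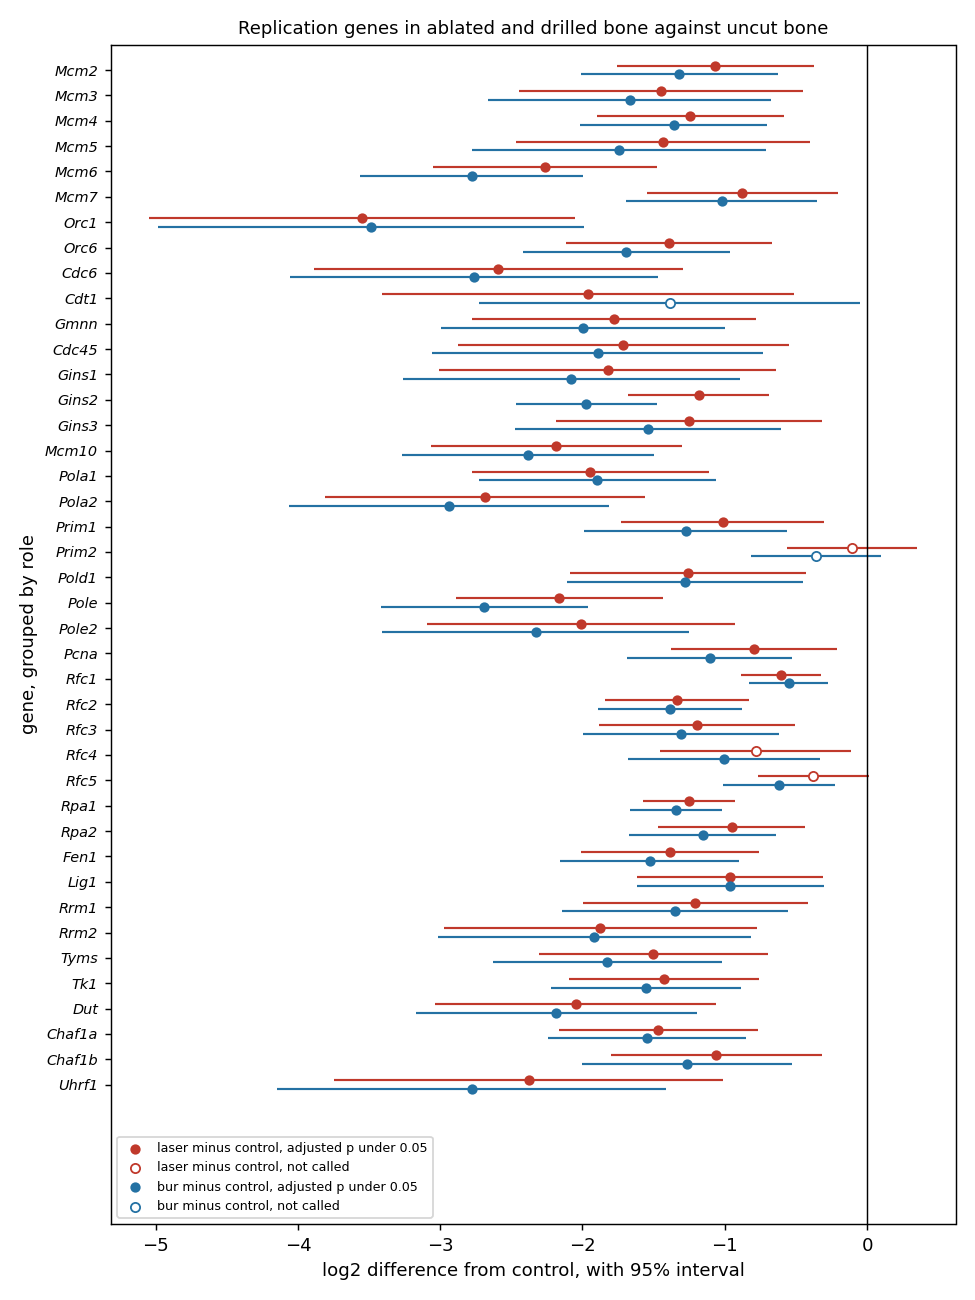
Log2 difference from control bone for each of the 41 genes, laser (red) above bur (blue), with the 95% interval of the limma fit (4 arrays per group). Filled points passed an adjusted p under 0.05, and every point lies left of 0.

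The MCM subunits form the ring that unwinds the parental strands. All 6 fell in both comparisons, with a median of -1.34 for laser and -1.51 for bur minus control. Mcm6 changed most: its log2 signal relative to the array's 75th percentile was -2.23, -1.004, -0.97 and -1.15 in laser-ablated bone and -2.15, -2.24, -0.85 and -2.19 in drilled bone, against 0.61, 1.26, 1.06 and 0.76 in control bone. The treated arrays all lay more than 1 log2 unit below the lowest control, with bur replicate 3 the highest of them. The difference was -2.26 ± 0.36 (SE) for laser minus control (limma adjusted p = 0.000714) and -2.78 ± 0.36 (SE) for bur minus control (adjusted p = 0.000311), which is 4.8-fold and 6.87-fold lower. Over the other settings this difference ran from -2.54 to -1.65 for laser and from -3.12 to -1.96 for bur minus control. Mcm7 changed least of the subunits. It stood at 2.44, 3.27, 3.39 and 3.41 in laser-ablated bone and 2.60, 2.64, 3.83 and 2.87 in drilled bone, against 3.66, 4.28, 4.22 and 3.86 in control bone. The laser and control values did not overlap, whereas bur replicate 3 lay above the lowest control. Its difference was -0.88 ± 0.30 (SE) for laser minus control (limma adjusted p = 0.0334) and -1.02 ± 0.30 (SE) for bur minus control (adjusted p = 0.0172). Mcm2, Mcm3, Mcm4 and Mcm5 lay between these, from -1.07 to -1.45 for laser and from -1.32 to -1.74 for bur minus control.

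The MCM promoters are printed because these genes moved together and because the E2F site is the sequence known for genes switched on at the entry to S phase. Windows from 250 bases before to 50 after the annotated start were taken from RefSeq (build GRCr8), on the strand of the gene, and 37 of 41 members had at least 1. Capitals mark a match to TTTCGCGC, TTTCCCGC, TTTGGCGC or TTTGCCGC on either strand, and matches may overlap, as where TTTCGCGC and its reverse complement share bases. Prim2, the member that changed least, is shown beside them, and so is Pole.
Mcm2, chr4:122918045-122918344, minus strand: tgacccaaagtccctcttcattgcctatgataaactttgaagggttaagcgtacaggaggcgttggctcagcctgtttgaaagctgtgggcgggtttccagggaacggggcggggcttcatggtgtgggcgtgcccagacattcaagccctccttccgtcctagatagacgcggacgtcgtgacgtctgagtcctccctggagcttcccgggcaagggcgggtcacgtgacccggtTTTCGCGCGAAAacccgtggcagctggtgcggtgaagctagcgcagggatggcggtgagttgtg
Mcm3, chr9:30733697-30733996, minus strand: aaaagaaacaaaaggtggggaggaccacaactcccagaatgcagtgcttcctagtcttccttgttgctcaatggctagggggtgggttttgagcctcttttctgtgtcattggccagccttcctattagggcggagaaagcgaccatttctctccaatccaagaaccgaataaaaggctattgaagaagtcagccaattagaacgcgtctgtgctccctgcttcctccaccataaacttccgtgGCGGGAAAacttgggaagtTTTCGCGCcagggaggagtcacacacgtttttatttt
Mcm5, chr19:13488563-13488862, plus strand: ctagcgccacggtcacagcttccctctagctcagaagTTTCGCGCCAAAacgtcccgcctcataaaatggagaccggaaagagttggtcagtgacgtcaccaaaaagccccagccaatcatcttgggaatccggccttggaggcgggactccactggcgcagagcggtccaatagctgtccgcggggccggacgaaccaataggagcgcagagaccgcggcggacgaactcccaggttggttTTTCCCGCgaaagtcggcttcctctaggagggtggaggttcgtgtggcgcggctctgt
Mcm6, chr13:42404303-42404602, minus strand: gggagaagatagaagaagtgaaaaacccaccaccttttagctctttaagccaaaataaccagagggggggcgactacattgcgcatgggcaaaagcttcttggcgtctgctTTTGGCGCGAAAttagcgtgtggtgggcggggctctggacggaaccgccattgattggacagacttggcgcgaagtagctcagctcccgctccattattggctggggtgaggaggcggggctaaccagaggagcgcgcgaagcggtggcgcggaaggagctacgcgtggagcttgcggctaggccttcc
Mcm7, chr12:22163129-22163428, minus strand: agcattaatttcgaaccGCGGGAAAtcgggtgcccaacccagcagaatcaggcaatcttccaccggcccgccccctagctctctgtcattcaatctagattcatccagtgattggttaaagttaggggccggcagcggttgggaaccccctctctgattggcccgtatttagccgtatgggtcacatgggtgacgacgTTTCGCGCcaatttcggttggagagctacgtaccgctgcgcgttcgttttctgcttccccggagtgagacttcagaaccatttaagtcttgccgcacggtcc
Pole, chr12:52053613-52053912, minus strand: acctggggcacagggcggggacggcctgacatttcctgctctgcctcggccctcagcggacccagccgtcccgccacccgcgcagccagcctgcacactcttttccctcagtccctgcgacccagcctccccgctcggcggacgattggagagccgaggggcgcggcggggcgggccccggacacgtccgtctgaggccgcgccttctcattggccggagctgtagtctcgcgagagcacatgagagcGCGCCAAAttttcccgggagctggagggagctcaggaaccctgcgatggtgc
Prim2, chr9:43400405-43400704, minus strand: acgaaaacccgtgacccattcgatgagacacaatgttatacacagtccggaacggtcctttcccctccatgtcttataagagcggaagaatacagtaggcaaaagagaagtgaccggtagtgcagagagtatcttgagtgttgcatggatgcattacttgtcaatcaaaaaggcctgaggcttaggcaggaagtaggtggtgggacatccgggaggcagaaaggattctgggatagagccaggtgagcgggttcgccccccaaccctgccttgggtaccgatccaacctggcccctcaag
All 5 MCM windows in the table held a match. The windows with none belonged both to members that changed little, such as Prim2, and to members that changed more, such as Mcm10, Pola2 and Dut. Over the members, 17 of 40 windows (42.5%) held a match, beside 2.14% of all 33469 windows of the same length. Of the 27 matches 20 began less than 100 bases before the start or after it. CCAAT, searched on both strands, lay in 25 of the 40 windows (62.5%), beside 37.5% of all windows, and it can share bases with the E2F letters. Of the listed mitosis genes, 1 of 25 windows (4%) held an E2F match and 18 (72%) held CCAAT. A match describes letters in a window and no binding was measured.

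**Figure D2:**
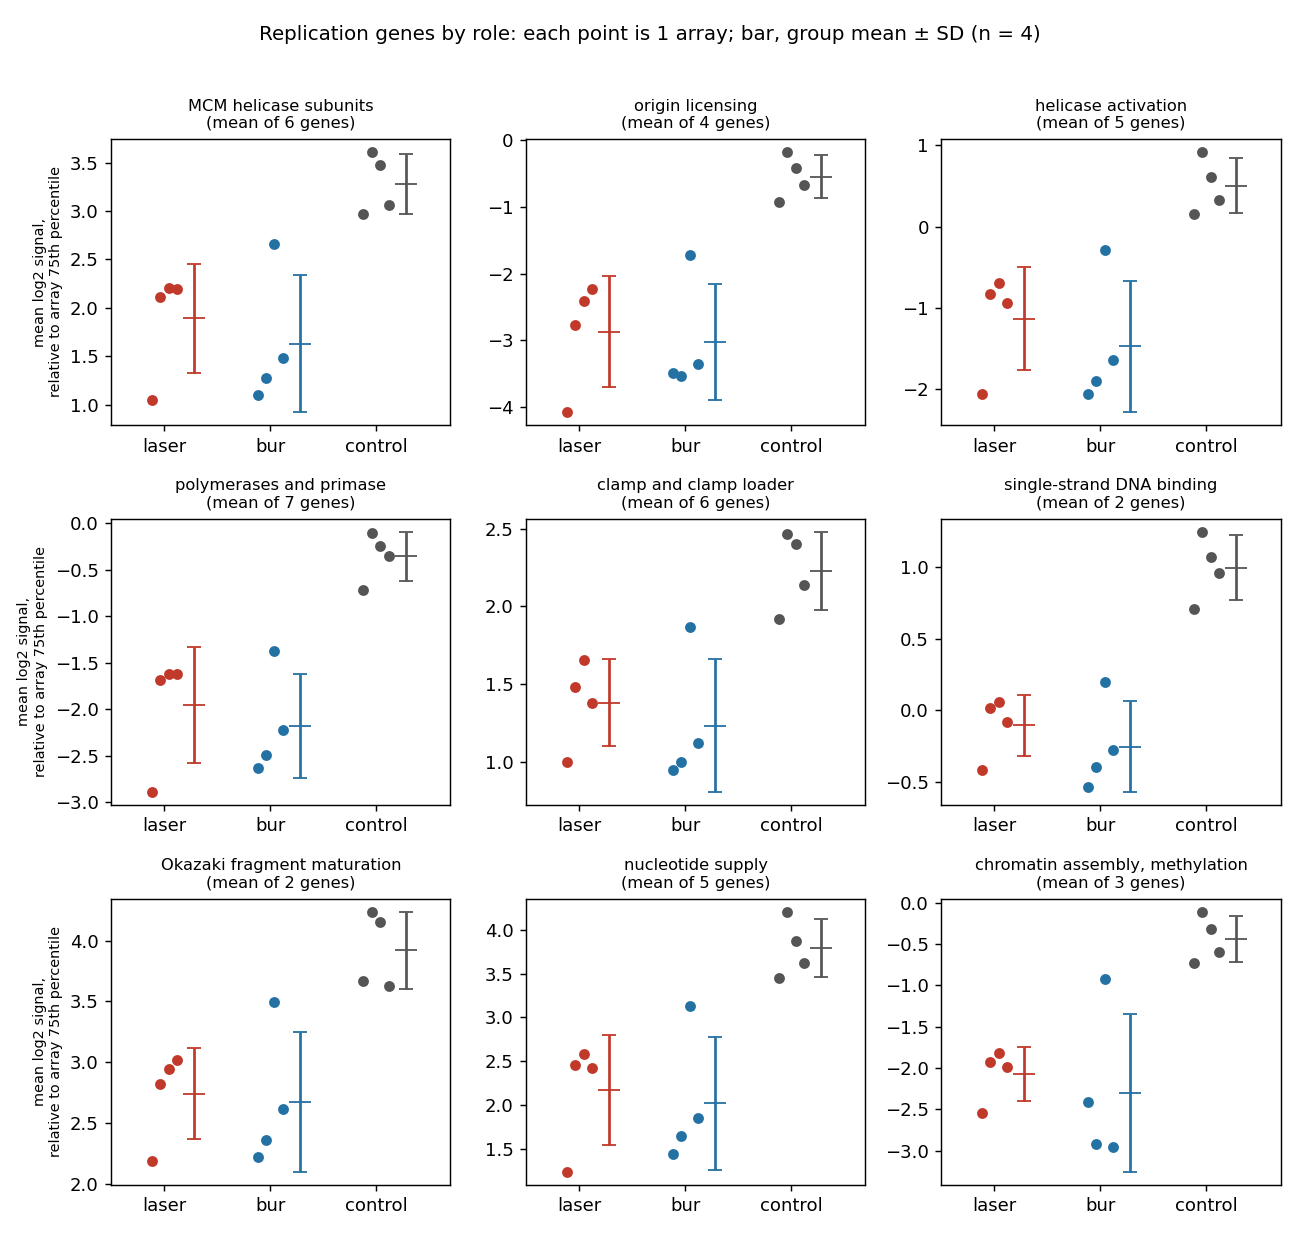
Mean log2 signal relative to the array's 75th percentile over the genes of each role, 1 point per array, with the group mean and SD (n = 4 arrays). In each panel the 4 control arrays are the highest, laser replicate 1 is the lowest laser array and bur replicate 3 the highest bur array.

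Origin licensing genes fell by a median of 1.96 in laser and 2.00 in bur minus control, with 5 of 5 called for laser and 4 of 5 for bur. Orc1, an ATP-binding subunit of the origin recognition complex, was -7.14, -6.83, -5.17 and -4.56 in laser-ablated bone and -6.55, -6.96, -4.05 and -5.88 in drilled bone, against -2.79, -1.92, -2.23 and -2.55 in control bone. All treated values lay below the controls. Its probe was well above background on none of the laser arrays, 1 bur array and all controls, so its level in laser-ablated bone is given as an upper bound. In the processing used here this was at least 7.52-fold below control (limma adjusted p = 0.00195 for the fitted difference). For this bound, a laser value below the dimmest well-measured probe of its array was raised to that probe's signal before the mean was taken. Laser values above that signal were kept as measured although not well above background, so this bound and those of Pola2 and Uhrf1 are not strict limits. The bound depends on the processing: the laser minus control difference of Orc1 was -0.86 with normexp background correction and -1.29 in the authors' deposited table. Its bur values were near background on 3 of 4 arrays, and bur minus control passed (limma adjusted p = 0.00215) with a size that moved in the same way, to -0.89 and -1.29. Orc6, the smallest ORC subunit, moved least of this set in laser-ablated bone and was -3.42, -2.18, -2.60 and -2.38 in laser-ablated bone and -2.55, -3.47, -2.28 and -3.48 in drilled bone, against -1.51, -1.01, -1.04 and -1.46 in control bone. Treated and control values did not overlap, and the difference was -1.39 ± 0.33 (SE) for laser minus control (limma adjusted p = 0.00573) and -1.69 ± 0.33 (SE) for bur minus control (adjusted p = 0.00212). Cdc6, the loading factor, fell 6.02-fold in laser-ablated and 6.79-fold in drilled bone (limma adjusted p = 0.00466 and 0.00335). Over the other settings its log2 difference ran from -3.26 to -1.92 for laser and from -3.29 to -2.03 for bur minus control. Gmnn, which encodes geminin, the inhibitor of Cdt1, fell 3.43-fold and 4-fold (limma adjusted p = 0.00839 and 0.00466).

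Cdt1, Cdc6's partner in loading the helicase, gave uneven values in drilled bone (SD 1.52, n = 4 arrays) and is described for that reason, after its values were seen. It was -4.41, -4.33 and -4.35 in laser replicates 2 to 4, -1.81, -5.10, -3.40 and -4.84 in drilled bone and -2.73, -2.06, -2.51 and -2.31 in control bone. Its spot on laser replicate 1 carried an outlier mark and was left out. Bur replicate 1 was the highest of all values for Cdt1, on an array where 27 members had their lowest bur value, and Cdt1 did not pass in drilled bone (-1.39 ± 0.60 (SE), limma adjusted p = 0.0768). Without that array the difference was -2.04 and passed. In laser-ablated bone it passed at -1.96 ± 0.65 (SE) (limma adjusted p = 0.0296), but the call was lost under 12 of 29 other settings, and in the authors' normalized values the difference was -0.17.

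The genes that complete and start the helicase all fell: 5 of 5 in both comparisons, with medians of -1.71 for laser and -1.97 for bur minus control. Mcm10, which helps the assembled helicase to start, was -3.44, -1.99, -2.09 and -2.30 in laser-ablated bone and -3.19, -3.01, -1.55 and -2.87 in drilled bone, against -0.49, 0.25, -0.27 and -0.58 in control bone. No treated value reached a control value, and the difference was -2.18 ± 0.40 (SE) for laser minus control (limma adjusted p = 0.00157) and -2.38 ± 0.40 (SE) for bur minus control (adjusted p = 0.00106). Gins2, a GINS subunit, was -3.79, -4.01, -3.48 and -3.96 in laser-ablated bone and -4.69, -4.99, -3.93 and -4.80 in drilled bone, against -2.83, -2.31, -2.66 and -2.70 in control bone. Its treated values lay below all controls, and 2 of 4 laser values lay above all bur values. The difference was -1.18 ± 0.23 (SE) for laser minus control (limma adjusted p = 0.00185) and -1.97 ± 0.23 (SE) for bur minus control (adjusted p = 0.000208), with the bur level known less well because the probe was above background on 1 of the 4 bur arrays. The size for Gins2 depends on the processing and the probe. Its bur minus control difference was -0.69 with normexp background correction. In the authors' deposited table it was at -0.71 for laser and -0.97 for bur minus control. The further probe of Gins2 gave -0.89 and -0.14, and neither was called. Cdc45, Gins1 and Gins3, the other listed parts of the active helicase, fell 3.28-, 3.54- and 2.38-fold in laser-ablated and 3.72-, 4.22- and 2.91-fold in drilled bone (limma adjusted p from 0.0168 to 0.0305 for laser and from 0.00892 to 0.0127 for bur).

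Among polymerase and primase genes, 6 of 7 fell in each comparison and Prim2 did not pass in either. Pola2, the regulatory subunit of polymerase alpha, was -6.85, -4.88, -5.59 and -4.74 in laser-ablated bone and -5.68, -6.73, -4.50 and -6.17 in drilled bone, against -3.16, -2.71, -2.76 and -2.68 in control bone. Treated and control values stayed apart. Its probe was well above background on none of the laser arrays and on 1 bur array. In the processing used here this puts its level in laser-ablated bone at least 4.90-fold below control (limma adjusted p = 0.00187 for the fitted difference). The bound depends on the processing: the laser minus control difference was -0.60 with normexp background correction and -0.87 in the authors' deposited table. Bur minus control passed (limma adjusted p = 0.00121), with a difference of -0.71 and -1.02 in those 2 sources and bur values near background on 3 of 4 arrays. Pole, the catalytic subunit of the leading-strand polymerase epsilon, was -4.01, -3.40, -3.57 and -3.42 in laser-ablated bone and -4.34, -4.39, -2.99 and -4.78 in drilled bone, against -1.65, -1.08, -1.45 and -1.56 in control bone. Its difference was -2.16 ± 0.33 (SE) for laser minus control (limma adjusted p = 0.000598) and -2.69 ± 0.33 (SE) for bur minus control (adjusted p = 0.000267). The size depends on the processing, at -1.04 for laser and -1.23 for bur minus control with normexp background correction and -0.46 and -0.69 in the authors' deposited table. Of its 2 further probes 1 also fell, whereas the other was higher in both comparisons (1.08 for laser and 0.88 for bur minus control, limma adjusted p = 0.020 and 0.0468), so the probes of Pole disagree in direction. Pola1, the catalytic subunit of polymerase alpha, and Pole2, an accessory subunit of polymerase epsilon, fell 3.85- and 4.03-fold in laser-ablated and 3.72- and 5.02-fold in drilled bone (limma adjusted p from 0.00209 to 0.00671 for laser and from 0.00239 to 0.00318 for bur). The probes of Pola1 and Pole2 were well above background on 3 of 4 laser and 3 of 4 bur arrays, and their sizes depend on the processing. Over the other settings Pola1 ran from -2.45 to -0.61 for laser and from -2.12 to -0.70 for bur minus control. Pole2 ran from -2.55 to -0.97 and from -2.87 to -1.12. In the authors' deposited table Pola1 was at -0.84 and -0.97 and Pole2 at -1.24 and -1.46. Pold1, the catalytic subunit of polymerase delta, fell 2.39- and 2.42-fold (limma adjusted p = 0.0178 and 0.0163).

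The primase subunits differed in what they did. Prim1, the catalytic subunit, fell 2.02-fold in laser-ablated and 2.42-fold in drilled bone (limma adjusted p = 0.0234 and 0.0081). Prim2, the large regulatory subunit, was 1.04, 1.56, 1.52 and 1.40 in laser-ablated bone and 0.65, 0.96, 1.51 and 1.36 in drilled bone, against 1.15, 1.72, 1.55 and 1.51 in control bone. The 3 groups overlapped, and the difference was -0.10 (95% interval -0.56 to 0.35) for laser and -0.36 (-0.82 to 0.10) for bur minus control, with limma adjusted p = 0.692 and 0.163. Prim2's call stayed the same under all 30 other settings for laser and under 29 of 30 for bur. The contrast between the subunits was not tested.

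The clamp and its loader moved least of the roles, with medians of -0.79 for laser and -1.06 for bur minus control. The call was made for 4 of 6 genes in laser-ablated and 6 of 6 in drilled bone. Pcna, the clamp, had a mean of 3.43 ± 0.34 in laser-ablated and 3.11 ± 0.51 in drilled bone, against 4.22 ± 0.30 in control bone (SD, n = 4 arrays each), 1.73- and 2.15-fold lower (limma adjusted p = 0.0282 and 0.00598). Rfc2 changed most of the loader subunits and was -0.09, 0.44, 0.74 and 0.23 in laser-ablated bone and -0.01, 0.18, 0.85 and 0.11 in drilled bone, against 1.38, 1.85, 1.93 and 1.52 in control bone. All treated values were below all controls, and the difference was -1.34 ± 0.23 (SE) for laser minus control (limma adjusted p = 0.0011) and -1.39 ± 0.23 (SE) for bur minus control (adjusted p = 0.000966). Rfc5 changed least in laser-ablated bone. It was 0.12, 0.35, 0.69 and 0.54 in laser-ablated bone and 0.06, -0.17, 0.51 and 0.33 in drilled bone, against 0.60, 0.97, 0.96 and 0.69 in control bone. Laser and control values overlapped, and the difference passed for bur (-0.62 ± 0.18 (SE), limma adjusted p = 0.0147) but not for laser (-0.38 ± 0.18 (SE), adjusted p = 0.0989). Rfc4 likewise passed for bur (-1.004 ± 0.31 (SE), limma adjusted p = 0.0188) and missed the threshold for laser (-0.78 ± 0.31 (SE), adjusted p = 0.0525), where 12 of 30 other settings called it. Rfc1, the large subunit, and Rfc3 fell 1.52- and 2.29-fold in laser-ablated and 1.47- and 2.47-fold in drilled bone (limma adjusted p from 0.00315 to 0.00932 for laser and from 0.00505 to 0.00602 for bur).

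RPA coats the exposed single strands. Rpa1, its large subunit, had the smallest adjusted p of the members in both comparisons and was -1.59, -1.35, -1.32 and -1.49 in laser-ablated bone and -1.76, -1.53, -1.26 and -1.57 in drilled bone, against -0.51, -0.01, -0.11 and -0.11 in control bone. The 3 groups were tight, with SDs of 0.13, 0.20 and 0.22, and the difference was -1.25 ± 0.15 (SE) for laser minus control (limma adjusted p = 0.000186) and -1.34 ± 0.15 (SE) for bur minus control (adjusted p = 0.00019). Rpa2 was 0.76, 1.38, 1.44 and 1.33 in laser-ablated bone and 0.69, 0.74, 1.65 and 1.01 in drilled bone, against 1.93, 2.51, 2.25 and 2.03 in control bone. Its treated values also lay below all controls, by -0.95 ± 0.24 (SE) for laser minus control (limma adjusted p = 0.0072) and -1.16 ± 0.24 (SE) for bur minus control (adjusted p = 0.00268).

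Fen1, the nuclease that trims the flaps of Okazaki fragments, was 1.91, 2.50, 2.56 and 2.76 in laser-ablated bone and 1.89, 1.97, 3.10 and 2.21 in drilled bone, against 3.62, 4.13, 4.06 and 3.47 in control bone. All treated values were lower than all control values, by -1.39 ± 0.28 (SE) for laser minus control (limma adjusted p = 0.00276) and -1.53 ± 0.28 (SE) for bur minus control (adjusted p = 0.00169). Lig1, the ligase that seals the fragments, was 2.47, 3.14, 3.32 and 3.28 in laser-ablated bone and 2.56, 2.75, 3.89 and 3.03 in drilled bone, against 3.71, 4.34, 4.24 and 3.78 in control bone. Bur replicate 3 reached into the control range, and the difference was -0.96 ± 0.30 (SE) for laser minus control (limma adjusted p = 0.0204) and -0.96 ± 0.30 (SE) for bur minus control (adjusted p = 0.0203).

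All 5 nucleotide supply genes fell in both comparisons, with medians of -1.50 for laser and -1.83 for bur minus control. Dut, the enzyme that removes dUTP, changed most and was 1.43, 2.95, 2.98 and 2.75 in laser-ablated bone and 1.77, 1.97, 3.66 and 2.18 in drilled bone, against 4.16, 5.06, 4.70 and 4.38 in control bone. No treated value reached the controls, and the difference was -2.05 ± 0.45 (SE) for laser minus control (limma adjusted p = 0.00384) and -2.18 ± 0.45 (SE) for bur minus control (adjusted p = 0.00278). Tyms, which makes thymidylate, was -1.64, -0.62, -0.46 and -0.67 in laser-ablated bone and -1.82, -1.38, -0.12 and -1.37 in drilled bone, against 0.21, 1.07, 0.68 and 0.66 in control bone. Its groups were likewise apart, by -1.50 ± 0.37 (SE) for laser minus control (limma adjusted p = 0.00663) and -1.83 ± 0.37 (SE) for bur minus control (adjusted p = 0.00245). Rrm1, the large subunit of ribonucleotide reductase, changed least and was 2.40, 3.50, 3.49 and 3.48 in laser-ablated bone and 2.39, 2.83, 4.08 and 3.00 in drilled bone, against 4.09, 4.78, 4.57 and 4.26 in control bone. Bur replicate 3 lay just under the lowest control, and the difference was -1.21 ± 0.36 (SE) for laser minus control (limma adjusted p = 0.0176) and -1.35 ± 0.36 (SE) for bur minus control (adjusted p = 0.0103). Rrm2, the reductase subunit made in S phase, fell 3.67-fold in laser-ablated and 3.77-fold in drilled bone, and Tk1, which salvages thymidine, 2.69- and 2.94-fold (limma adjusted p from 0.00333 to 0.0104 for laser and from 0.00216 to 0.00924 for bur).

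The 3 genes that restore chromatin fell in both comparisons. Uhrf1, which reads half-methylated DNA and recruits the maintenance methyltransferase, was -5.30, -4.80, -4.80 and -4.72 in laser-ablated bone and -4.89, -6.07, -3.25 and -7.02 in drilled bone, against -2.79, -2.14, -2.50 and -2.69 in control bone. Treated and control values did not overlap, and the bur values spread over more than 3 log2 units. Its probe was well above background on none of the laser arrays and 1 bur array. In the processing used here this puts its level in laser-ablated bone at least 5-fold below control (limma adjusted p = 0.00925 for the fitted difference). This bound too depends on the processing: the laser minus control difference was -0.69 with normexp background correction and -1.02 in the authors' deposited table. Bur minus control passed (limma adjusted p = 0.00424), at -0.74 and -1.05 in those 2 sources, with bur values near background on 3 of 4 arrays. Chaf1b, a subunit of the histone chaperone CAF-1, was -0.08, 0.68, 0.76 and 0.49 in laser-ablated bone and -0.20, -0.26, 1.32 and 0.17 in drilled bone, against 1.24, 1.86, 1.76 and 1.24 in control bone. Bur replicate 3 alone reached the control range, and the difference was -1.06 ± 0.34 (SE) for laser minus control (limma adjusted p = 0.0232) and -1.27 ± 0.34 (SE) for bur minus control (adjusted p = 0.0101). Its partner Chaf1a fell 2.76- and 2.92-fold (limma adjusted p = 0.00356 and 0.00275).

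Whether the way of cutting mattered was asked by setting laser-ablated against drilled bone. No member was called (0 of 41), where 1 of all 22926 genes, Hspa1a, was (0.00436%), and 1 member, beside 6.51% of all genes, had an unadjusted p under 0.05. The members' median difference was 0.20 (laser minus bur, log2), with 36 of 41 above 0, beside 0.01 for all genes. No member's groups were apart, where 1.5% of all genes lay wholly lower and 2.06% wholly higher in laser-ablated bone. Gins2 had the smallest p, at 0.79 ± 0.23 (SE) (95% interval 0.29 to 1.29, limma unadjusted p = 0.00484, adjusted p = 0.545), and its further probe gave -0.75. Pole (0.53, 95% interval -0.20 to 1.26) and Mcm6 (0.52, -0.27 to 1.30) were the next highest, while Lig1 was level (0.00, -0.66 to 0.65) and Cdt1, at -0.57 (-2.02 to 0.87), was the lowest. For 21 members the interval stayed within a 2-fold difference in either direction. For the other 20 members the interval reached past a 2-fold difference.

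**Figure D3:**
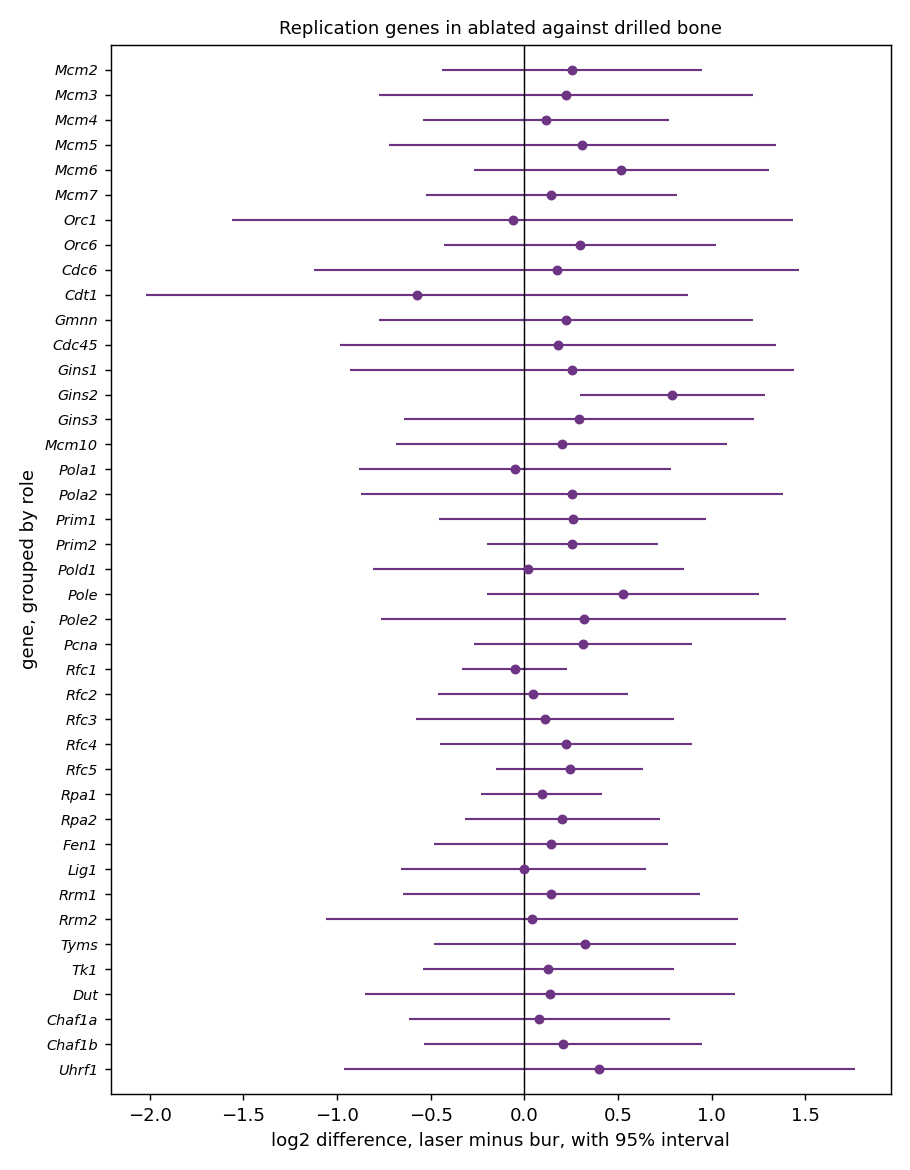
Log2 difference of laser-ablated minus drilled bone for each of the 41 genes, with the 95% interval of the limma fit (4 arrays per group). Gins2 is the single gene whose interval leaves out 0, before adjustment.

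Within groups the members went up and down together across arrays. Their median SD was 0.46 among laser, 0.71 among bur and 0.31 among control arrays, beside 0.29, 0.32 and 0.23 for all genes. Laser replicate 1 had the lowest laser value in 39 of 41 members and bur replicate 3 the highest bur value in 39, whereas control replicate 1 was the lowest control in 37 and control replicate 2 the highest in 36. The same counts over all genes were not made. The mean over the 40 members with a value on every array was -0.81, 0.17, 0.30 and 0.21 in laser-ablated bone and -0.67, -0.60, 0.74 and -0.41 in drilled bone, against 1.13, 1.78, 1.59 and 1.33 in control bone. The 8 treated means were below the 4 control means, with bur replicate 3 nearest to them. Bur replicate 3 lay below all controls in 32 members, and the other treated arrays did so in all but at most 2 of the members they measured. These counts per array were not made over all genes either, so they describe the members only. The widest laser SD was that of Orc1 (1.25) and the widest bur SD that of Uhrf1 (1.63), each a probe near background in its group.

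**Figure D4:**
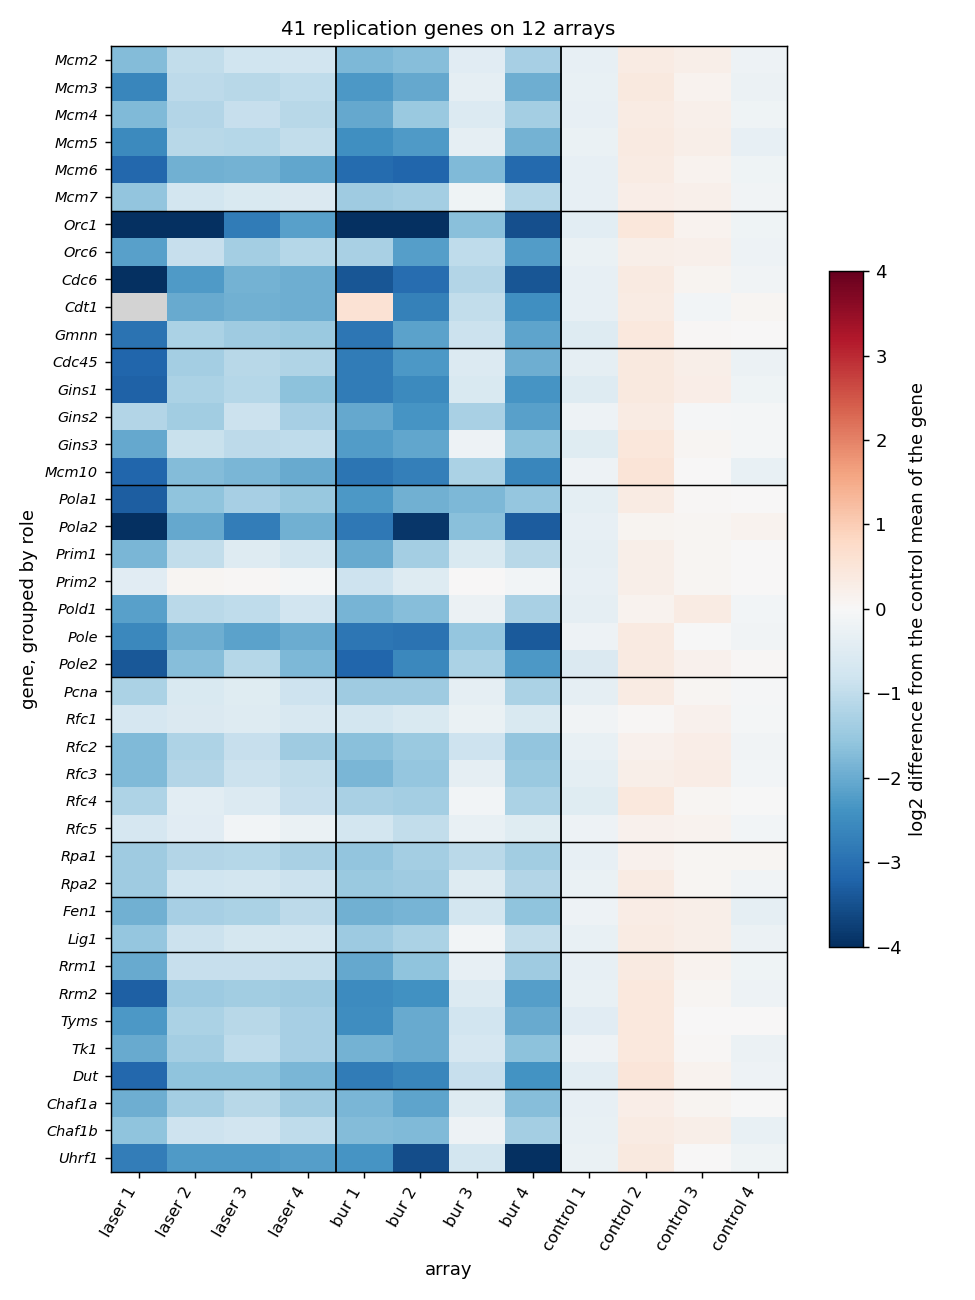
Log2 difference of each gene on each array from that gene's control mean, with blue for lower and red for higher, and colours held at 4 units either way. Laser replicate 1 is the darkest laser column, bur replicate 3 the palest bur column, and the grey cell is the Cdt1 value left out.

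These arrays bear on the comparison of the cutting methods. Laser replicate 1 and bur replicate 3 were both left out, a choice made after seeing them. For most members they are the lowest laser and the highest bur array, so leaving them out raises laser minus bur by construction. The members' median for laser minus bur was then 0.75, and 3 members were called, beside 0.846% of all genes. The 3 were Cdc6 at 1.26, Mcm6 at 1.15 and Pole at 1.04 (limma adjusted p = 0.0422, 0.0387 and 0.0481). Because the choice fixed the direction, these calls are no test of the cutting methods. With the same arrays left out, 39 members were lower than control for laser and 39 for bur, beside 15.4% and 19.5% of all genes. With either array alone left out no member was called between laser and bur. On the first slide, which held replicates 1 and 2, the median was -1.63 for laser and -1.95 for bur minus control with 38 and 40 members lower, beside 17.8% and 18.4% of all genes. On the second, with replicates 3 and 4, it was -1.16 and -1.17 with 19 and 24 members lower, beside 10.4% and 11.5%. Within the first slide 37 members and within the second 28 were above 0 for laser minus bur, with none called in either (limma).

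The other genes of the pathway did not all go the same way. Of 38 further replication genes 34 were measured, of which 22 fell and 1 rose in laser-ablated bone, and 22 fell and 2 rose in drilled bone (limma). Wdhd1, which tethers polymerase alpha to the helicase, was among them at -2.22 ± 0.38 (SE) for laser minus control (limma adjusted p = 0.00101) and -2.56 ± 0.38 (SE) for bur minus control (adjusted p = 0.000524). Dbf4, the activator of the kinase that fires origins, fell by 1.77 and 1.79, and Rpa3, the small RPA subunit, by 1.09 and 1.30 (limma adjusted p from 0.0028 to 0.00329 for laser and from 0.00133 to 0.00269 for bur). Mcmbp, which binds the MCM ring, had the smallest p between the cutting methods (0.23 ± 0.12 (SE) for laser minus bur, limma adjusted p = 0.811).

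The subunits of the origin recognition complex went different ways, and they were singled out after their values were seen. Beside the fall of Orc1 and Orc6, Orc2 was 0.29, 0.42, 0.23 and 0.06 in laser-ablated bone and 0.14, 0.14, 0.50 and 0.00 in drilled bone, against -0.51, -0.14, -0.28 and -0.34 in control bone. All its treated values were above all controls, and it rose in both comparisons, by 0.57 ± 0.14 (SE) for laser and 0.52 ± 0.14 (SE) for bur minus control (limma adjusted p = 0.00675 and 0.0106). Orc3 rose in drilled bone (0.34, limma adjusted p = 0.0218) and did not pass in laser-ablated bone (0.18, adjusted p = 0.19). Orc4 and Orc5 passed in neither, with differences of 0.11 and 0.14 for laser and -0.08 and 0.18 for bur minus control (limma adjusted p from 0.528 to 0.566 and from 0.404 to 0.685). Pold2, Pold4 and Pole3, small subunits of the delta and epsilon polymerases, were likewise not called, at 0.18, 0.23 and -0.08 for laser minus control (limma adjusted p from 0.191 to 0.684).

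Of the 27 regulators of the passage into S phase, 18 fell and 3 rose in laser-ablated and 19 fell and 3 rose in drilled bone (limma). E2f5, an E2F family member that represses, rose by 1.04 ± 0.11 (SE) and 0.80 ± 0.11 (SE) (limma adjusted p = 0.000119 and 0.000365). The D-type cyclins, which drive G1 with Cdk4 and Cdk6, diverged: Ccnd1 rose by 1.71 ± 0.24 (SE) and 0.94 ± 0.24 (SE), while Ccnd3 fell by 1.54 and 1.41 (limma adjusted p = 0.00036 and 0.00773, then 0.000151 and 0.000261). Ccnd1 was 2.21, 1.58, 2.17 and 2.27 in laser-ablated bone and 1.67, 0.96, 1.03 and 1.49 in drilled bone, against 0.84, -0.07, 0.36 and 0.27 in control bone. Its treated values all exceeded the controls, opposite to the replication genes on the same arrays. E2f6, a repressor, was the third that rose (0.40 and 0.35, limma adjusted p = 0.0115 and 0.0211). Cdk4 had the smallest p between the cutting methods (0.50 ± 0.14 (SE) for laser minus bur, limma adjusted p = 0.545).

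The CDK inhibitors, which hold cells out of S phase, were mixed, with 1 of 7 risen and 3 fallen in each comparison (limma). Cdkn1a, which encodes p21, an inhibitor that also binds PCNA, was 3.46, 2.52, 3.15 and 3.27 in laser-ablated bone and 3.65, 2.80, 2.99 and 3.17 in drilled bone, against 1.72, 1.21, 2.02 and 1.89 in control bone. All treated values were above all controls, by 1.39 ± 0.25 (SE) for laser minus control (limma adjusted p = 0.0015) and 1.44 ± 0.25 (SE) for bur minus control (adjusted p = 0.00128). Cdkn1b, Cdkn2c and Cdkn2d fell, by 0.95, 1.56 and 0.96 for laser and 1.08, 1.67 and 1.04 for bur minus control (limma adjusted p from 0.0018 to 0.014 and from 0.00131 to 0.0075). Cdkn1c, Cdkn2a and Cdkn2b did not pass in either, at -0.07, 0.93 and -0.48 for laser and 0.22, 0.71 and -0.20 for bur minus control (limma adjusted p at least 0.073). Of 17 checkpoint and fork repair genes 9 fell in laser-ablated and 11 in drilled bone and none rose (limma). They included Rad17, Rad9a and Fancd2, at -1.75, -1.15 and -3.31 for laser minus control (limma adjusted p from 0.000187 to 0.00289). Chek1, the checkpoint kinase, had the smallest p between the cutting methods (0.79 ± 0.26 (SE) for laser minus bur, limma adjusted p = 0.608).

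Genes of mitosis went with those of replication. Of 30 measured, 29 fell in each comparison (limma), all but Cenpa, with medians of -2.14 for laser and -2.36 for bur minus control. Cenpe, Aurkb and Top2a, which act at kinetochores, on chromosome segregation and on DNA tangles, were at -2.68, -2.63 and -3.00 for laser and -2.79, -2.86 and -3.29 for bur minus control (limma adjusted p from 0.00081 to 0.00227 and from 0.000691 to 0.00144). Their mean by array was -1.65, 0.23, 0.27 and 0.11 in laser-ablated bone and -1.05, -0.87, 0.98 and -0.72 in drilled bone, against 1.41, 2.29, 1.86 and 1.76 in control bone. Laser replicate 1 was again the lowest laser array and bur replicate 3 the highest bur array, and controls lay above all treated arrays. Cenpf had the smallest p between the cutting methods (0.57 ± 0.59 (SE) for laser minus bur, limma adjusted p = 0.94).

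Markers of marrow cells were lower with the replication genes. Of 14 erythroid markers 13 fell in each comparison (limma), with medians of -2.78 for laser and -2.92 for bur minus control, and Ermap and Gata1 were at -1.73 and -2.97 for laser minus control. The mean erythroid level was -1.59, 2.19, 2.06 and 1.68 in laser-ablated bone and 0.22, 0.64, 2.50 and 0.62 in drilled bone, against 3.51, 4.37, 3.73 and 3.86 in control bone. It had the same extreme array in each group as the replication mean. Of 9 granulocyte precursor markers 8 fell in each comparison, of 8 platelet and megakaryocyte markers 7, and of 12 B cell markers 8 for laser and 7 for bur (limma). Ngp and Mpo were at -2.71 and -2.36, Gp1ba and Itga2b at -1.72 and -2.66, and Cd22 and Blnk at -2.14 and -1.48 for laser minus control. These 3 lists too had their lowest laser mean on replicate 1 and their highest bur mean on replicate 3. Among controls the granulocyte list was lowest on replicate 3 and the B cell list highest on replicate 3, unlike the replication mean. In these 4 lists no marker was below background on all arrays of a group. Their part in the results for the replication genes was not tested.

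Of 9 T and NK cell markers 7 fell for laser and 6 for bur, with Cd5 and Zap70 at -2.16 and -1.11 for laser minus control. Of 8 monocyte and macrophage markers 4 fell in each comparison and 1 rose for laser, with Csf1r and Mrc1 at -0.77 and -1.28. Their array means ran from 2.12 to 2.21 in laser-ablated and 1.70 to 2.32 in drilled bone, against 2.23 to 2.58 in control bone. Both lists also had their lowest laser mean on replicate 1 and their highest bur mean on replicate 3. Of 6 endothelial markers 1 fell in each comparison, Tie1 at -1.93 for laser minus control, and 1, Pecam1, rose for bur. Osteoblast and bone matrix markers went the other way: 12 of 12 rose for laser and 10 of 12 for bur, with Omd and Runx2 at 2.67 and 2.18 for laser minus control (limma). Of 8 osteocyte markers 7 rose and 1, Sost, fell for laser (-0.80, limma adjusted p = 0.046), while 8 rose for bur. Dmp1 and Slc13a5 were at 2.88 and 2.36 for laser minus control. Neural and glial markers fell in 6 of 8 in each comparison, with Gfap at -2.19 for laser minus control, and no skeletal muscle marker of 8 passed (limma, with 0 for laser and 1 for bur at an unadjusted p under 0.05), with Tnnt3 and Tnnc2 at -2.02 and -2.75 for laser minus control. The mean of the muscle markers was uneven among control arrays, at -1.87, 3.65, -3.04 and 2.43 on replicates 1 to 4.

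**Figure D5:**
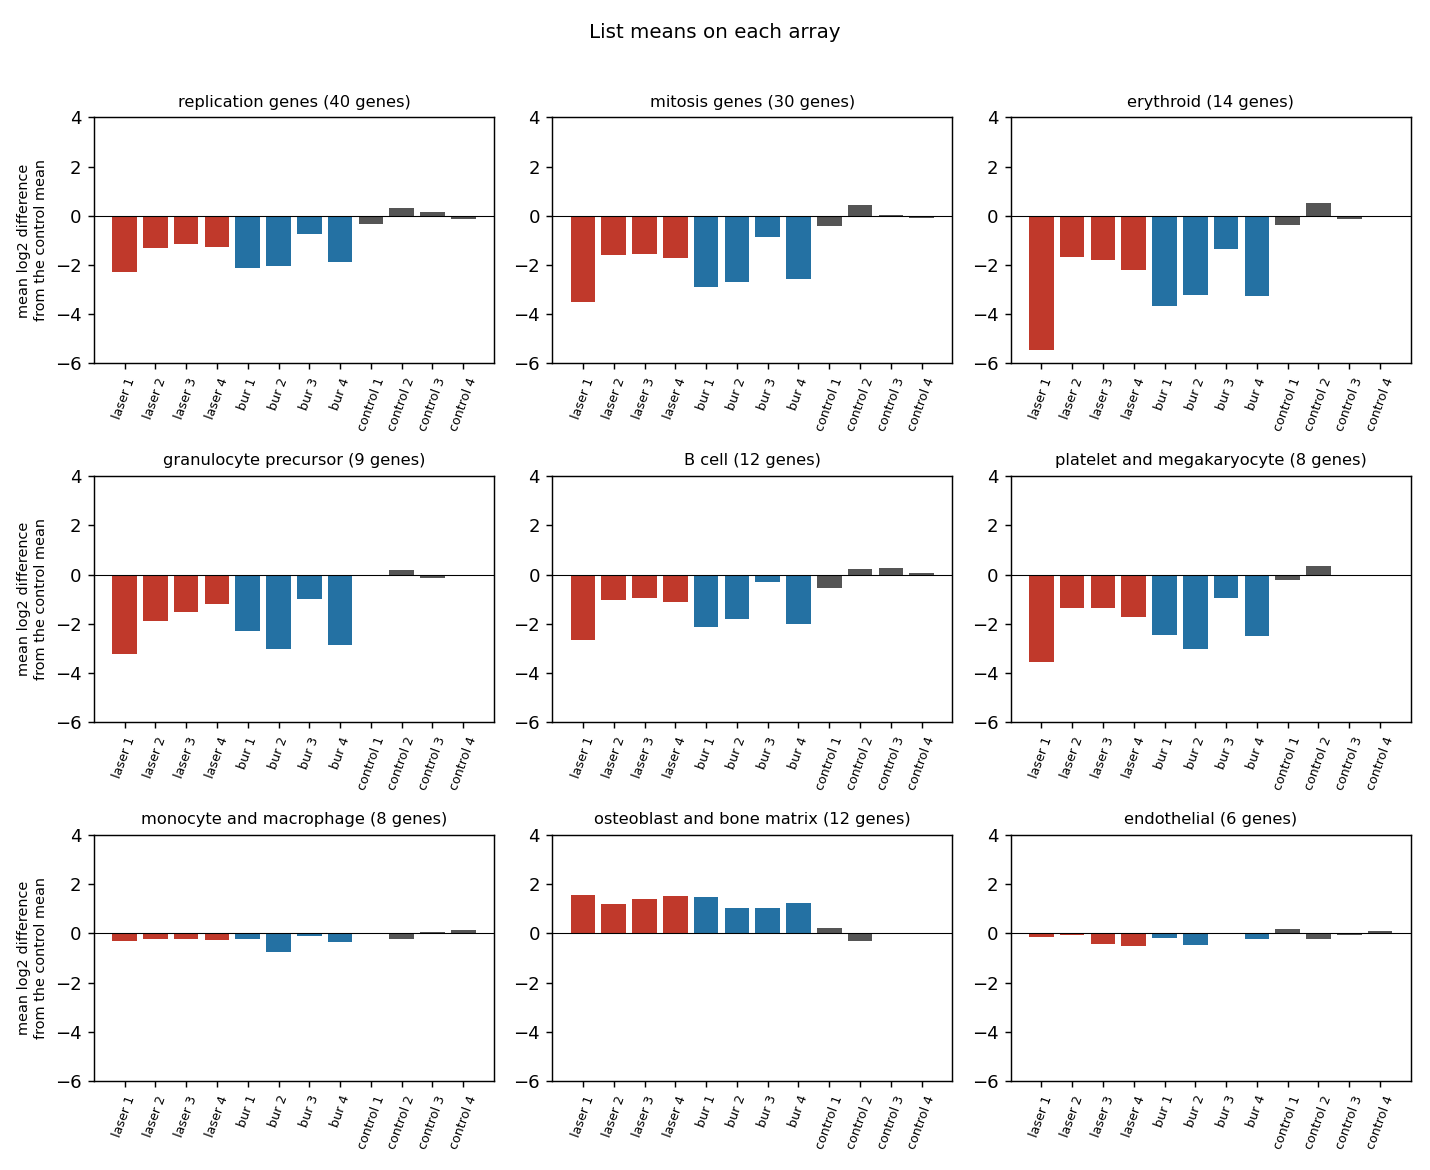
Mean log2 difference of each gene list on each array from its control mean, laser in red, bur in blue and control in grey. The replication, mitosis, erythroid, granulocyte, B cell, platelet and monocyte lists have their lowest laser value on replicate 1 and their highest bur value on replicate 3, while the osteoblast list stands above 0 on every treated array.

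Several probes were kept for 13 members, which gave 16 further probes. Of these 12 were lower, 1 higher and 3 not called in each comparison (limma, fitted on all probes). The higher one was that of Pole described above. The further probes of Mcm3 (-0.35 for laser and -0.40 for bur minus control) and Gins2 (-0.89 and -0.14) and 1 of 3 for Mcm4 (-1.20 and -0.49) were those not called. In the authors' deposited tables of the same comparisons, 40 members are listed by the probe used here, all but Dut. The authors' deposited table has 37 of them lower for laser and 38 for bur against control at an adjusted p under 0.05, and none differing between laser and bur.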

How the data were processed

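The array files hold spot intensities that the authors deposited, read from 1-colour (Cy3) arrays by Agilent Feature Extraction (version 11.0.1.1 in the submitters' processing notes), and the processed signal in them is background-subtracted per the file headers. For labelling, 200 ng of total RNA was used per sample, per the labels. Further tables the authors deposited hold normalized log2 values, and for each comparison fold changes on the log2 scale with raw and adjusted p-values by probe. For their fit, the method is not given in the sources used.

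Processed signals were log2 transformed, control spots and outlier-marked spots were left out, spots of a probe were averaged (45598 probes), and values were set relative to the 75th percentile of their array. Probes well above background on at least 4 of 12 arrays were kept (30121), and the brightest probe per gene name was used (22926 genes). Groups follow the sample titles. All 12 arrays were fitted with a mean per group in limma 3.58.1 (R 4.3.3, lmFit and eBayes), and two-sided p-values were adjusted by Benjamini-Hochberg across the 22926 genes, with calls made under 0.05. Data were simulated gene by gene, with the SD of each gene averaged over the groups. On these the fit called 50% (laser against control) and 46% (bur against control) of genes lowered by 1 log2 unit and 94% and 90% of those lowered by 3. Only 50 genes of 22926 were lowered at each size, whereas 11421 (laser) and 11699 (bur) genes were called against control here. The adjustment is therefore stricter in the simulation. The simulation also held neither the unequal spread of the groups nor the deviations that genes share on an array. These shares do not give the power of the fit on the real arrays.

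Values of every array are given for the members of each role with the largest and smallest difference from control and the smallest p between laser and bur. For other lists, up to 3 genes with the smallest adjusted p for laser against control (all CDK inhibitors, 2 for markers) and 1 with the smallest p between laser and bur are named. One marker that this rule names is not reported here. The members, lists and rules were chosen with earlier results of these data known. Alternatives covered scaling, background correction, filters, probes, the fit, slides and each array left out.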

Additional observations from a re-analysis of the deposited data

Results flagged for a closer look

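Single arrays stood far from the rest of their group in 21 of 125 sets of 4 values (the members in each group and the mean of the members), where chance gives about 1 in 20. The measure was the gap of the extreme array to its neighbour, divided by the range of the group; it was set against Dixon's 95% critical value for 4 samples. The members are not independent of each other on an array, so the count cannot be read as an excess over that rate. The share of all genes flagged by this measure was not computed.

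Laser replicate 1 was low in 15 of these sets. Its log2 signal relative to the 75th percentile was, among genes of the helicase and its loading, Mcm3 1.26, Mcm5 0.79, Mcm6 -2.23 and Mcm7 2.44, where the other laser arrays lay at 2.77 to 2.84 for Mcm3 and -1.15 to -0.97 for Mcm6. For the licensing and activation genes it was Cdc6 -3.44, Gmnn -2.29, Cdc45 0.0582 and Gins3 -1.58, where the other laser arrays lay at -1.44 to -1.07 for Cdc6 and 1.89 to 2.14 for Cdc45. For synthesis, nucleotide and chromatin genes it was Pola1 -5.88, Rpa2 0.76, Rrm1 2.40, Rrm2 2.21, Dut 1.43 and Uhrf1 -5.30, where the others lay at 4.02 to 4.07 for Rrm2. The mean of the members was -0.81 on laser replicate 1 and 0.17 to 0.30 on the other laser arrays.

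Bur replicate 3 was high in 5 sets. It was at Mcm6 -0.85, Cdc6 -0.35, Pcna 3.87, Rfc4 0.59 and Rrm2 4.91, where the other bur arrays lay at -2.24 to -2.15 for Mcm6 and -2.60 to -2.24 for Cdc6. Control replicate 1 was low for Pola2, at -3.16 beside -2.76 to -2.68 on the other controls.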

How the results depend on the processing

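For the counts and medians of members against control, no alternative turned a direction and none called a member higher, and the cause of each change below was not tested unless the alternative itself shows it. Prim2, which did not pass for laser, lay just above 0 with normexp background correction (0.020) and without laser replicate 1, alone or with bur replicate 3 (0.0088 both times). With normexp background correction the laser minus control median was -0.97. A test against a log2 change of at least 1, which asks more of each gene, called 0 members for laser and 2 for bur (Mcm6 and Pole), where it called 322 and 170 of all genes. On the treated arrays of the second slide alone, which leaves 2 laser and 2 bur arrays, 19 members for laser and 24 for bur were lower, beside 10.4% and 11.5% of all genes. With slide as a random block 31 and 38 were lower, beside 12.6% and 13.6% of all genes. All controls lie on 1 slide, so this block cannot remove the slide difference from control. Leaving out 1 array at a time gave 27 to 39 members and medians of -1.48 to -1.20 for laser against control, with 27 without control replicate 2 and 30 without laser replicate 1 or control replicate 3. Beside these, 13.4% to 18.4% of all genes were lower. For bur against control it gave 37 to 39 members and -1.89 to -1.40, beside 14.3% to 19.3% of all genes lower. For laser against bur it gave 0 to 0 members and 0.02 to 0.52. With laser replicate 1 and bur replicate 3 both left out, chosen after seeing the data, 3 members were called between laser and bur. Leaving out the lowest laser and the highest bur array raises laser minus bur by construction. Over all settings 0 to 194 genes in all were called between laser and bur. Single members kept their side of the threshold in 1106 of 1222 recomputed laser against control values, lost the call in 102 and gained it in 14, and for bur against control in 1158 of 1222, with 59 lost and 5 gained. With a replicate block 38, 39 and 0 members were called in the 3 comparisons, beside 19.4% and 20.2% of all genes lower against control and 0.00436% called between laser and bur. The numbers were not taken to pair the samples: correlations of same-numbered arrays' deviations ran from 0.04 to 0.58, all 12 above 0 but 8 over 0.1, and an array's best match in another group had its own number in 17 of 24 cases, a hint from the data and not from the design. Signal near background limits Orc1, Pola2 and Uhrf1 to bounds in laser-ablated bone. In the processing used here these bounds lie below the members' median, which stayed at -1.39 with the bounds put in. With normexp background correction the differences of these genes were -0.86, -0.60 and -0.69, above that setting's median of -0.97.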
